A study of Homo sapiens with 4 samples.

Results

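The mitochondrial genome encodes 7 subunits of complex I of the respiratory chain, ND1, ND2, ND3, ND4L, ND4, ND5 and ND6, and their mRNAs were followed here through a pulldown of the enzyme PHGDH. They are 7 of the 44715 genes in the deposited tables and were found by symbol, which carries no MT- prefix there. RNA immunoprecipitation followed by sequencing was carried out on native lysates of HEK293T cells, a human line established from embryonic kidney and carrying SV40 large T antigen. PHGDH is the enzyme that starts serine synthesis, drawing on an intermediate of glycolysis, and the study asked which RNAs associate with the protein. There were 2 libraries with an anti-PHGDH antibody and 2 with an anti-IgG antibody as the control, all from unmodified cells of the same line, and the series text calls the replicates biological.

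Complex I takes electrons from NADH, passes them to ubiquinone and pumps protons across the inner mitochondrial membrane. The 7 mitochondrially encoded subunits form the core of its membrane arm, while its other subunits are encoded in the nucleus and imported. Transcription of the mitochondrial genome gives long precursors that are cut at the tRNAs between the genes. The mRNAs of 6 members are read from the heavy-strand promoter, ND4L and ND4 stay together on a single bicistronic mRNA, and ND6 is the only mRNA of the light-strand transcript.

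Some features of the libraries bear on every value below. IgG replicate 1 was the deepest library, with 3875746 reads assigned to genes, but listed only 4148 genes above 0, against 14518 to 16767 in the other libraries, and 61.9% of the 9524 genes tested were at 0 there. All 7 members were above 0 in all libraries. Mitochondrially encoded genes took 28.8% of the reads in anti-PHGDH replicate 1, 8.69% in anti-PHGDH replicate 2, and 3.87% and 3.37% in IgG replicates 1 and 2, so anti-PHGDH replicate 1 also stood apart. Values are CPM, read counts scaled to a fixed total per library, and are thus shares of a library. A larger recovery of an mRNA and a smaller recovery of the others cannot be told apart in them. Of the 6 markers listed for the HEK293T line, 5 passed the filter on low values, and PAX2 was at 1.90 CPM or less. Of 5 markers of other cell types, PTPRC, CD3E and HBB were listed at 0 in every library, and DES and ALB were above 0 in anti-PHGDH replicate 1 alone, at 2.08 and 0.297 CPM. NDUFS1 and NDUFS3, which cells with a respiratory chain use, were also listed at 0 throughout, so a 0 in these tables does not show that a gene was not expressed.

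For all 7 complex I mRNAs, both anti-PHGDH libraries lay above both IgG libraries on the CPM scale, though for 6 with TMM factors and for 0 after centring on library medians. The summed level of the 7 was 124395 CPM in anti-PHGDH replicate 1 and 26910.5 CPM in replicate 2, compared with 4704 CPM in IgG replicate 1 and 5589 CPM in IgG replicate 2. The lack of overlap between the groups was shared with 38.3% of all genes tested, and with 19.3% of the 3629 genes tested that were above 0 in IgG replicate 1. By a stricter rule, a level at least 2-fold higher in every pair of an anti-PHGDH and an IgG library on CPM + 1, 6 of the 7 mRNAs counted, ND3 being the exception. Of all genes tested 9.30% met that rule, and of those above 0 in IgG replicate 1, 2.87% did.

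No member passed the test across genes. In limma on log2(CPM + 1), 0 of the 7 had an adjusted p under 0.05, where 0.0105% of all genes tested were called higher, and 6 of 7 had an unadjusted p under 0.05, against 2.74% of all genes in the same direction. edgeR's quasi-likelihood test and DESeq2 on the recovered reads called 0 of 7 as well, with 5 and 4 members higher at an unadjusted p under 0.05, against 0.220% and 0.934% of all genes. In limma that number was 3 with a constant prior variance and 0 after centring on library medians, against 363 and 43 of the 9524 genes tested. It stayed at 6 with TMM factors and after quantile normalization, against 217 and 196 genes. The median log2 fold change of the 7 was 3.50, and that of all genes tested was 1.92. Leaving out IgG replicate 1 gave medians of 3.40 and 0.14, and leaving out IgG replicate 2 gave 3.61 and 3.60. When anti-PHGDH replicate 1 was left out, where mitochondrial reads were most abundant, the median of the 7 was 2.35 and that of all genes 1.96, so that the gap narrowed. It was narrow too at a pseudocount of 0.1 (3.50 against 3.38) and in edgeR with the replicate block (3.24 against 3.08), with 4 of the 7 above the median of all genes in each. With 2 libraries per group, an exact permutation test of a single value cannot give a two-sided p below 0.333.

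**Figure D1:**
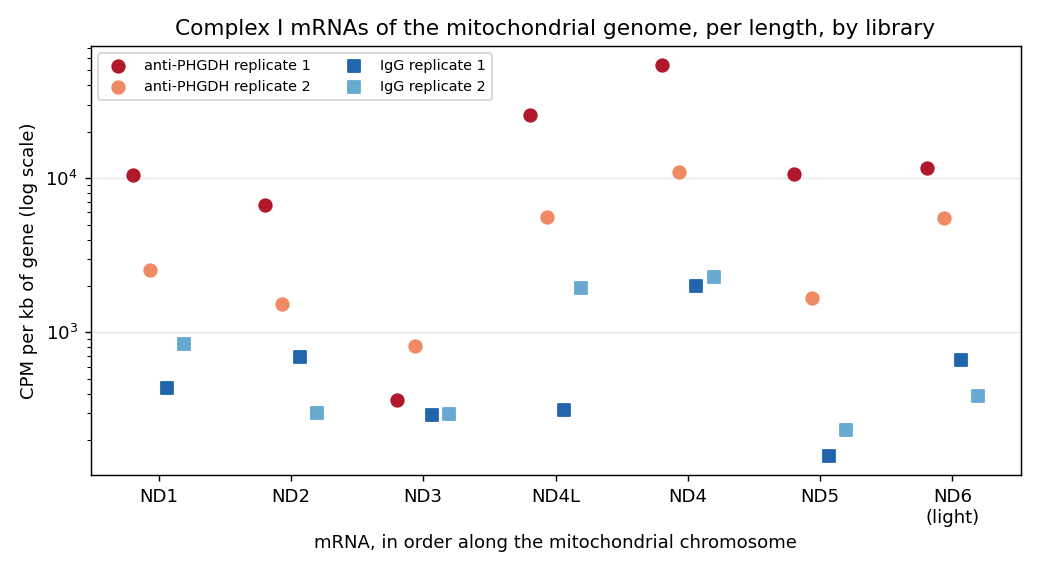
Levels of the 7 complex I mRNAs in CPM per kb of gene length (log axis), in order along the mitochondrial chromosome, 1 point per library. Circles are anti-PHGDH and squares IgG libraries; on this scale both circles lie above both squares in each mRNA, with the narrowest gap for ND3, whose fold change turns negative (-1.61) after centring on library medians.

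The heavy-strand members are described in the order of their genes, with coordinates of chromosome M in the RefSeq table for GRCh38.p14. ND1 (Entrez 4535, positions 3307 to 4262) encodes a subunit at the junction of the membrane arm with the part that receives electrons, near the entry to the ubiquinone site. Its level was 10074 CPM in anti-PHGDH replicate 1 and 2426 CPM in replicate 2 (mean 6250.2 ± 5408, SD, n = 2). The IgG libraries, given in the same order of replicates here and below, had 418 and 803 CPM (mean 610.5 ± 272, SD, n = 2). The groups were separated by a factor of 3.02 at the closest pair, and limma gave a log2 fold change of 3.09 (SE 1.12; adjusted p = 0.677).

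ND2 (Entrez 4536, positions 4470 to 5511) encodes an antiporter-like subunit of the membrane arm. Its level was 6934 and 1588 CPM with anti-PHGDH (mean 4261 ± 3780.1, SD, n = 2) and 718 and 310.2 CPM with IgG (mean 514 ± 288, SD, n = 2). The IgG libraries ran the opposite way to those of ND1, with IgG replicate 1 the higher, 2.31 times IgG replicate 2. The groups did not overlap, the closest pair differed by a factor of 2.21, and limma gave a log2 fold change of 2.81 (SE 1.16; adjusted p = 0.677).

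ND3 (Entrez 4537, positions 10059 to 10404) encodes a small subunit beside ND1, with a loop that lies near the ubiquinone site. It was the exception among the 7. The anti-PHGDH libraries had 126 and 281 CPM of ND3 (mean 204 ± 109.7, SD, n = 2), and the IgG libraries 100.4 and 102 CPM (mean 101 ± 1.11, SD, n = 2). The lower anti-PHGDH value was 1.24 times the higher IgG value, and limma gave a log2 fold change of 0.89 (SE 1.61; adjusted p = 0.713), below the median of all genes by 1.03 on the log2 scale and at -1.61 after centring on library medians. ND3 was the only member lower in anti-PHGDH replicate 1 than in replicate 2, with a ratio of 0.448, where the other 6 were between 2.09 (ND6) and 6.37 (ND5) times as high in replicate 1. These values rest on 424, 342, 389 and 161 reads, the fewest of any member in 3 of the 4 libraries.

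ND4L (Entrez 4539, positions 10470 to 10766) encodes the smallest of the core membrane subunits. Its level was 7679 and 1669 CPM with anti-PHGDH (mean 4674 ± 4250.04, SD, n = 2). With IgG it was 93.4 and 579.96 CPM (mean 337 ± 344, SD, n = 2), the widest spread between IgG libraries among the 7, with IgG replicate 1 at 0.161 times IgG replicate 2. The closest pair differed by a factor of 2.88. In limma the log2 fold change was 3.93 (SE 1.21; adjusted p = 0.677), with 2.62 without IgG replicate 1 and 5.25 without IgG replicate 2.

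ND4 (Entrez 4538, positions 10760 to 12137), a second antiporter-like subunit, was the most abundant member in every library, per gene and per length. Its level was 74294 and 15019.6 CPM with anti-PHGDH (mean 44657 ± 41913, SD, n = 2) against 2742 and 3172 CPM with IgG (mean 2957 ± 304, SD, n = 2). In anti-PHGDH replicate 1 it had 250061 of the library's 3365837 reads, more than any other gene. The closest pair of libraries differed by a factor of 4.74, and limma gave a log2 fold change of 3.50 (SE 0.93; adjusted p = 0.507). A limit attaches to ND4: its values in both anti-PHGDH libraries were not a whole number of reads, by -0.071 and -0.0045 reads, beyond the rounding tolerance of 0.0018 and 0.00064 reads. All other values of the members were whole. The summed level and the share of the members are therefore also given without it below.

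ND5 (Entrez 4540, positions 12337 to 14148) encodes the third antiporter-like subunit, at the tip of the membrane arm, and has the longest gene of the 7. The anti-PHGDH libraries had 19193 and 3013 CPM of ND5 (mean 11103 ± 11441, SD, n = 2), and the IgG libraries 287 and 419 CPM (mean 353 ± 93.0, SD, n = 2). Its log2 fold change, 4.45 (SE 1.13; limma adjusted p = 0.365), was the largest of the 7 with all libraries and without anti-PHGDH replicate 2. With anti-PHGDH replicate 1 left out that of ND6 was larger (3.46 against 3.12), as with IgG replicate 1 left out (4.37 against 4.18). With IgG replicate 2 left out that of ND4L was larger (5.25 against 4.72). The groups did not overlap, with a factor of 7.20 at the closest pair. Per length ND5 was the lowest of all 13 mitochondrial mRNAs in both IgG libraries, at 158 and 231 CPM per kb, whereas in the anti-PHGDH libraries it ranked 10 and 11 of 13, at 10592 and 1663 CPM per kb.

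ND6 (Entrez 4541, positions 14149 to 14673) encodes a subunit of the membrane arm next to ND3 and ND4L, and its coordinates begin at the base after the end of ND5, with the opposite strand as the coding one. Its level was 6095 and 2914 CPM with anti-PHGDH (mean 4505 ± 2249, SD, n = 2), while it was 345 and 203 CPM with IgG (mean 274 ± 100.2, SD, n = 2). It had the widest separation at the closest pair, a factor of 8.45. In limma the log2 fold change was 3.99 (SE 1.19; adjusted p = 0.677), and of the 6 members above 2-fold in every pair it moved least between the anti-PHGDH replicates, by a factor of 2.09. Whether reads were assigned by strand is not stated, so reads from the ND6 mRNA and from heavy-strand precursors across the same bases cannot be told apart.

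The standard errors come from the trend of spread on level across all genes, because the fit estimated infinite prior degrees of freedom. The members' own spread within groups ran from 0.58 (ND3) to 1.71 (ND4L) on the log2 scale, and it was smaller than the standard error for ND3 and ND6 and larger for the other 5.

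Per kilobase of gene, the order of the 7 was almost the same in both anti-PHGDH libraries. ND4 stood first in both, at 53914 and 10899.6 CPM per kb, followed by ND4L, at 25856 and 5619, and ND6, at 11610 and 5551. ND2 and ND3 were last, with ND3 at 364 and 812.5 CPM per kb. ND1 and ND5 changed places between the replicates, and they differed there by less than the replicates of either did. Spearman's rho between the orders, a description over 7 mRNAs that share their libraries, was 0.96 for the anti-PHGDH replicates and 0.64 for the IgG replicates. Between the antibodies it was 0.71 and 0.86 for anti-PHGDH replicates 1 and 2 with IgG replicate 2, and 0.36 and 0.46 with IgG replicate 1. ND4 was also first in both IgG libraries, at 1990 and 2302 CPM per kb, and ND5 last. ND3 was low per length in all libraries. Its neighbour COX3 had a level per length that exceeded it in every library, since the ratio of ND3 to COX3 was 0.020 and 0.059 with anti-PHGDH and 0.047 and 0.044 with IgG.

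The pairing of ND4L with ND4 was examined as the ratio of their levels per length. The ratio was 0.480 and 0.515 in anti-PHGDH replicates 1 and 2 (mean 0.498 ± 0.025, SD, n = 2). It was 0.158 and 0.848 in IgG replicates 1 and 2 (mean 0.503 ± 0.488, SD, n = 2). The anti-PHGDH values lay between the IgG values, so the groups overlapped (exact permutation p = 1.00, two-sided; adjusted p = 1.00 over the 8 ratios computed). ND4L and ND4 share 7 bases, and how reads that touch both genes were assigned is not stated. ATP8 and ATP6, the other bicistronic pair, with 46 shared bases, gave ratios of 0.331 and 0.279 with anti-PHGDH and 0.131 and 0.271 with IgG (exact permutation p = 0.333; adjusted p = 0.667). In both pairs the lowest ratio was that of IgG replicate 1.

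The strand of ND6 was examined against its heavy-strand neighbours in the same way. The ratio of ND6 to ND5 per length was 1.10 and 3.34 with anti-PHGDH and 4.15 and 1.68 with IgG, so the groups overlapped (exact permutation p = 0.667, two-sided; adjusted p = 1.00). The ratio of ND6 to CYTB, the gene on the other side, was 0.287 and 0.513 with anti-PHGDH and 0.077 and 0.180 with IgG. These did not overlap (exact permutation p = 0.333; adjusted p = 0.667), where the CYTB value of IgG replicate 2 was itself not a whole number of reads. Of the 8 ratios, 4 separated the groups, each with an exact permutation p of 0.333, the smallest that 2 against 2 libraries can give. The others were ATP8 to ATP6 (0.331 and 0.279 against 0.131 and 0.271), ND5 to ND4 (0.196 and 0.153 against 0.080 and 0.100) and ND3 to ND4L (0.014 and 0.145 against 0.922 and 0.151). ATP8 to ATP6 and ND3 to ND4L separated by a margin within the spread of either group. The ratio of ND1 to ND2, the members nearest the promoter, was 1.58 and 1.66 with anti-PHGDH and 0.635 and 2.82 with IgG, and overlapped (exact permutation p = 1.00).

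The ratios were also set in the order of the genes along the heavy strand. Comparing the libraries numbered 1, anti-PHGDH over IgG gave a ratio of 24.1 for ND1, 9.66 for ND2, 1.26 for ND3, 82.2 for ND4L, 27.1 for ND4 and 66.9 for ND5. For the libraries numbered 2 the ratios were 3.02, 5.12, 2.76, 2.88, 4.74 and 7.20 in the same order. ND6, read from the other strand, had ratios of 17.7 and 14.3, the highest of the 7 in number 2. In number 2, 12.5% of all genes tested were at least 2-fold higher with anti-PHGDH, and 7 of 7 members were. In number 1, 39.1% of the tested genes above 0 in the IgG library were, and 6 of 7 members were. Spearman's rho of the ratio with position, over the 12 heavy-strand mRNAs, was 0.17 in number 1 and 0.36 in number 2, and 0.28 for the log2 fold change. Over the 6 heavy-strand members alone it was 0.60 and 0.37, and 0.71 for the log2 fold change. These mRNAs share their libraries and their precursor, so the values are descriptive. A shared number is not stated to mark a shared lysate.

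**Figure D2:**
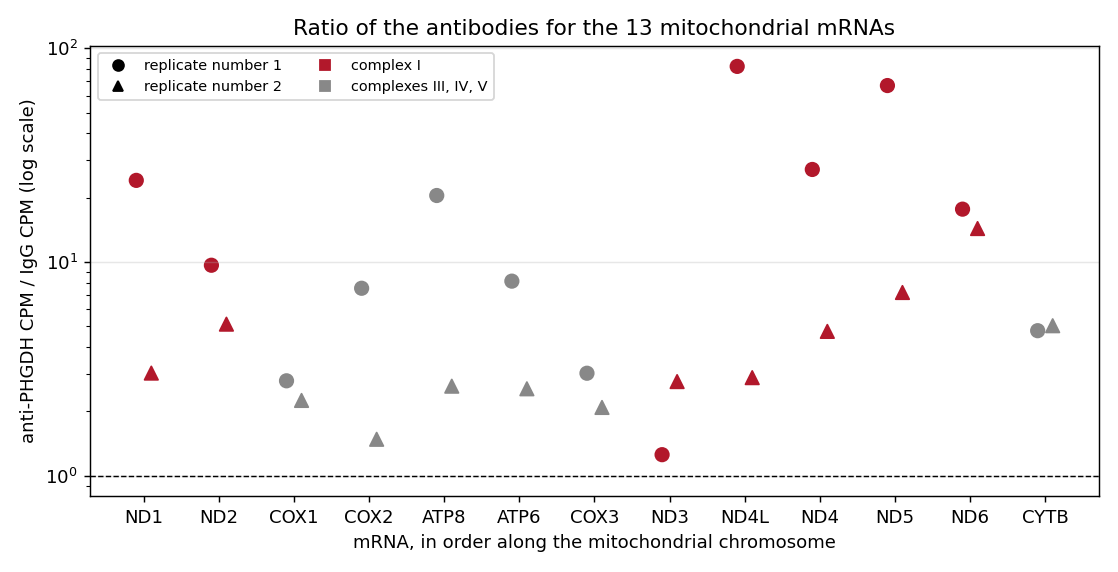
Ratio of anti-PHGDH to IgG CPM (log axis) for the 13 mitochondrial mRNAs in order along the chromosome, between libraries of replicate number 1 (circles) and number 2 (triangles), complex I in red and the other complexes in grey. All ratios are above 1 on the CPM scale. Centring on library medians turns the log2 fold change of ND3 to -1.61 and leaves only 1 of the 6 mRNAs in grey above 0 (-1.17 to 0.37). ND4L reaches 82.2 in number 1 and ND6 14.3 in number 2, while ND3 is at 1.26 and 2.76.

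The members were set against the other 6 mitochondrial mRNAs, which encode subunits of complexes III, IV and V. All 6 were also higher in every pair of libraries on the CPM scale (4 with TMM factors, 3 after quantile normalization, 0 after centring on library medians), and 2 of 6 were 2-fold higher in every pair. Their log2 fold changes ran from 1.32 (COX1) to 2.87 (ATP8), with a median of 1.96, and those of the 7 members from 0.89 (ND3) to 4.45 (ND5). After centring on library medians, 1 of these 6 was above 0, with a range of -1.17 to 0.37, and 6 of the 7 members were. Summed over mRNAs, complex I was 26.4 times as high with anti-PHGDH in number 1 and 4.82 times in number 2, or 25.5 and 4.92 times without ND4. The other 6 mRNAs together were 4.82 and 2.13 times as high.

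Within the reads of the 13 mitochondrial mRNAs, complex I took a larger share in the anti-PHGDH libraries. The reads of nuclear genes do not enter this share. Whether the mix of mitochondrial mRNAs in IgG replicate 1 was itself altered was not tested. ND4L was 0.241% of these reads there and 1.72% in IgG replicate 2. The share of complex I was 43.2% in anti-PHGDH replicate 1 (95% Wilson interval 43.1 to 43.3%, 418694 of 969315 reads) and 31.0% in replicate 2 (30.8 to 31.3%, 32736 of 105435 reads). It was 12.2% in IgG replicate 1 (11.998 to 12.3%, 18232 of 149904 reads) and 16.6% in IgG replicate 2 (16.3 to 16.9%, 8827 of 53105 reads). The intervals cover counting error only. The groups did not overlap, and the difference of the means, 37.1 ± 8.59% against 14.4 ± 3.15% (SD, n = 2 each), was 22.7 percentage points. The difference was larger than the spread within either group, but the exact permutation p was 0.333, two-sided, the smallest that 2 against 2 libraries can give. Without ND4, in both parts of the ratio, the share was 23.4% and 16.6% with anti-PHGDH and 5.46% and 7.94% with IgG.

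**Figure D3:**
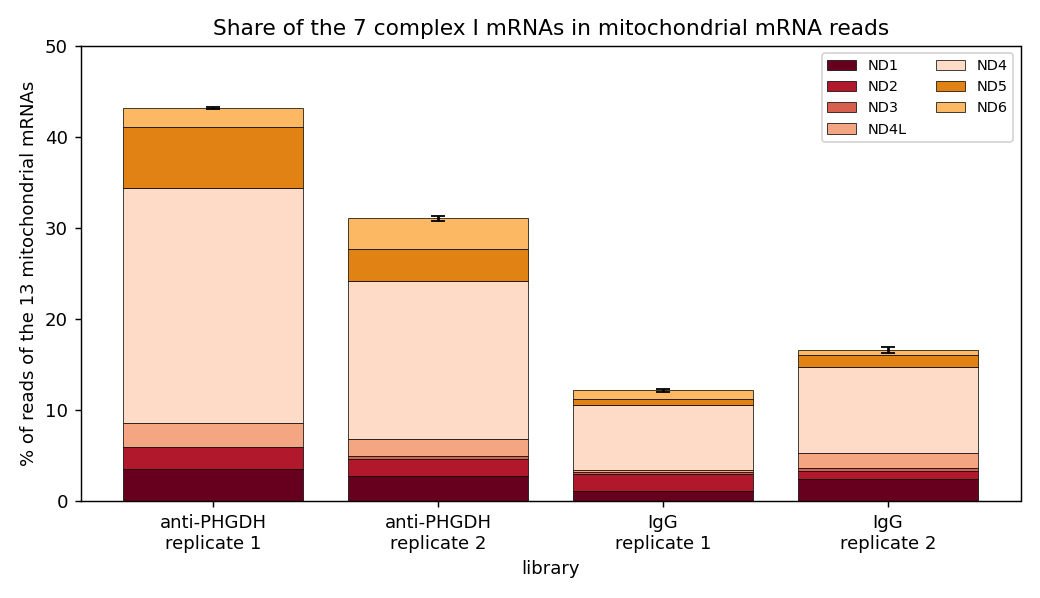
Share of the 7 complex I mRNAs in the reads of the 13 mitochondrial mRNAs (percent), 1 bar per library, with 95% Wilson intervals of the total. The bars reach 43.2% and 31.0% with anti-PHGDH and 12.2% and 16.6% with IgG, and ND4 is the largest part of each.

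Taken singly, the share exceeded that of both IgG libraries in both anti-PHGDH libraries for 5 of the 7 members, ND1, ND4L, ND4, ND5 and ND6, and was lower for none. Among the other 6 it was higher for ATP8 and lower for COX1. ND4 went from 7.09% and 9.43% of mitochondrial mRNA reads with IgG to 25.8% and 17.3% with anti-PHGDH. ND6 went from 0.892% and 0.604% to 2.12% and 3.36%, and ND5 from 0.742% and 1.24% to 6.66% and 3.48%. ND3 had 0.259% and 0.303% with IgG and 0.0437% and 0.324% with anti-PHGDH, and its groups overlapped. ND2 overlapped narrowly, with 2.41% and 1.83% with anti-PHGDH and 1.86% and 0.923% with IgG.

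Among the mRNAs of the nuclear-encoded partners, no subunit mRNA tested had both anti-PHGDH libraries above both IgG libraries. Of the 37 nuclear complex I subunits listed, 33 passed the filter on low values, and 0 had an adjusted p under 0.05 in limma. At an unadjusted p under 0.05 there were 5, all toward anti-PHGDH (2.74% of all genes tested). In these 5 (NDUFS7, NDUFS8, NDUFB7, NDUFB10 and NDUFB11, named after their values were seen) IgG replicate 1 was at 13.2 CPM or less, and without that library 2 subunits had such a p in either direction. In the 30 subunits above 0 in IgG replicate 1, both anti-PHGDH libraries were above both IgG libraries in 0 and below in 7, where 19.3% and 16.2% of the genes tested above 0 there were (38.3% and 6.16% of all genes tested). The median log2 fold change of the 33 was -0.41, against 1.92 over all genes and 3.50 over the 7 mitochondrially encoded members. Its sign rested on single libraries, since leaving out anti-PHGDH replicate 1 gave 0.19 and leaving out IgG replicate 2 gave 0.46. Leaving out anti-PHGDH replicate 2 or IgG replicate 1 gave -1.27 or -1.10.

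Among the 7 nuclear core subunits, which hold the flavin and the iron-sulfur clusters or line the electron path, 5 were tested. Their median log2 fold change was 3.23, with IgG replicate 1 at 0 in 2 of the 5. That median is the value of NDUFV1, at 206 and 388 CPM with anti-PHGDH against 0.774 and 518 CPM with IgG. It rests on the low value of IgG replicate 1, since IgG replicate 2 was above both anti-PHGDH libraries. NDUFS8, an iron-sulfur subunit, had the highest value, 808 and 1185 CPM with anti-PHGDH against 0 and 1365 CPM with IgG (log2 fold change 4.73, SE 1.53; limma adjusted p = 0.677). That fold change rests on the 0 of IgG replicate 1, since IgG replicate 2 was above both anti-PHGDH libraries. NDUFV2 was the lowest, at 93.6 and 230.2 CPM with anti-PHGDH against 377 and 272 CPM with IgG (log2 fold change -1.12, SE 1.49; limma adjusted p = 0.677). NDUFS1 and NDUFS3 did not enter, being at 0 throughout.

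Of the 30 accessory subunits, 28 were tested, and their median log2 fold change was -0.67. NDUFB11 was highest at 3.89, again with IgG replicate 1 at 0 and the other IgG library, at 895 CPM, above both anti-PHGDH libraries. NDUFA5 was lowest at -2.14, with 584 CPM in IgG replicate 1 and between 27.0 and 60.8 CPM elsewhere. The 14 assembly factors, which put the complex together, had a median of 1.88, with ECSIT highest at 3.49 (145 and 102 CPM against 0 and 117 CPM) and NDUFAF6 lowest at -1.50. The 18 genes of mitochondrial RNA synthesis and processing had a median of 1.63. POLRMT, the mitochondrial RNA polymerase, was highest at 2.66, with 43.1 and 67.4 CPM against 0 and 74.7 CPM, and GRSF1, which binds mitochondrial RNA, was lowest at -2.77, with 2793 CPM in IgG replicate 1 alone. IgG replicate 1 was at 0 in 6 of these 14 and 8 of these 18 genes, ECSIT and POLRMT among them. In both lists 0 genes passed in limma, and 0 had an unadjusted p under 0.05.

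**Figure D4:**
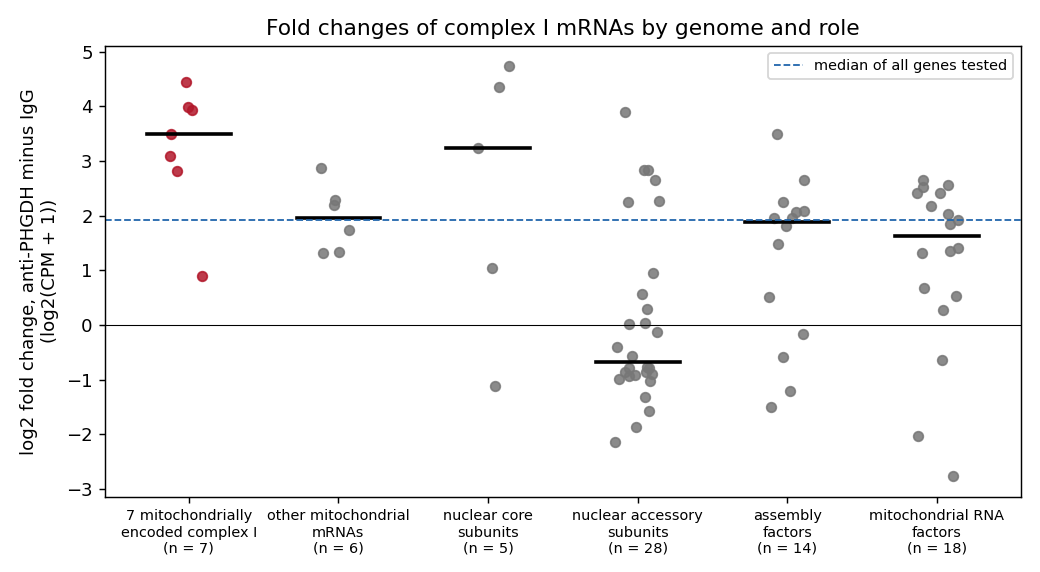
Log2 fold change of anti-PHGDH over IgG on log2(CPM + 1), 1 point per gene tested, for the 7 mitochondrially encoded complex I mRNAs and 5 comparison lists. Black bars are medians and the dashed line is the median of all genes tested, 1.92. The median is 3.50 for the 7 mRNAs, although ND3 is at 0.89. It is 3.23 for the 5 core subunits tested and -0.67 for the accessory subunits. Of the 5 core subunits, 2 were at 0 in IgG replicate 1, and NDUFV1, whose value is the median, was at 0.774 CPM there.

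The nuclear genes whose pattern over the 4 libraries was nearest to the mean of the 7 members were sought by the distance between log2(CPM + 1) values centred on each gene's mean. The 5 nearest of 9509 were ZNF488, TMBIM1, TESK1, USP21 and MAP4, at distances from 0.35 to 0.49, where the median gene was at 3.34. The first 3 of these were low, at no more than 17.5 CPM in any library. MAP4, which binds microtubules, had 1063 and 512 CPM with anti-PHGDH, against 56.0 and 70.9 CPM with IgG. Among the members, ND1 and ND4 were closest to their own mean, at 0.55 and 0.57, and ND3 was farthest, at 3.06. With 4 libraries this likeness describes levels only.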

How the data were processed

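Per the submitters' processing notes, reads were aligned to hg38 with STAR 2.5.4b and counted with featureCounts. Strand use, multi-mapped reads, duplicates and annotation version are not given in the sources used here. The RefSeq table lists 255 MTND pseudogenes, copies of mitochondrial complex I genes, and the tables hold 0 such symbols, so levels of the members may include or lack reads of such copies. The authors deposited CPM values, 1 table per library. These were whole multiples of 1 read for 99.98 to 100% of values above 0, which gave totals of 3365837 and 1216477 reads in the anti-PHGDH libraries, and of 3875746 and 1579430 in the IgG libraries. A count of 0 allows 3 reads, 0.774 to 2.47 CPM. Mitochondrial genes were taken from RefSeq (GRCh38.p14).

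Genes were tested with limma 3.58.1 in R 4.3.3, using log2(CPM + 1) values, a trend of the variance on level and no covariate. A gene entered with 5 CPM or more in 2 or more libraries, which 9524 did. The test was two-sided with Benjamini-Hochberg adjustment and a threshold of 0.05. Fold changes understate those of low genes. edgeR 4.0.16 and DESeq2 1.42.0 on recovered reads, pseudocounts, filters, scalings, a replicate block and leaving out libraries were alternatives. The procedure was run on simulated counts with known fold changes. These had the same dispersion in every library and no library rich in zeros, unlike the data, so they do not measure its performance here. Members and lists were chosen with earlier results of these data known. The genes named are the members, ATP8, ATP6 and CYTB as neighbours or pairs, per nuclear list the highest and lowest fold change, and the 5 most like the members. COX1, COX3 and NDUFV1 were named after their values were seen.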

Additional observations from a re-analysis of the deposited data

Results flagged for a closer look

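The mitochondrial tRNA genes, which lie between the mRNAs on the same precursors, entered no comparison above. In 6 of the 22 both anti-PHGDH libraries had more than 3 reads and were above both IgG libraries. The share of all genes tested that did not overlap in that direction, 38.3%, is not a like measure. Of the tRNA genes only TRNN and TRNP passed the filter on low values, and the rule on reads was added here. TRNP, on the light strand like ND6, had 88.2 and 194 CPM with anti-PHGDH against 0.774 and 46.9 CPM with IgG, each in the order of replicates. TRNN had 9.80 and 6.58 CPM with anti-PHGDH against 0.258 and 0.633 CPM with IgG. TRNY was at 4.75 and 4.11 CPM against 0 in both IgG libraries, and TRNC at 5.35 and 3.29 CPM against 0 and 1.90 CPM. On the heavy strand, TRNT was at 2.97 and 26.3 CPM against 0 and 1.27 CPM, and TRNH at 1.49 and 4.11 CPM against 0 and 1.27 CPM. All but TRNP rest on 33 reads or fewer per library.

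Summed over the 8 light-strand tRNA genes, the level was 109 and 213 CPM with anti-PHGDH and 1.03 and 49.4 CPM with IgG. Without TRNP it was 21.1 and 18.9 CPM against 0.258 and 2.53 CPM. Over the 14 heavy-strand tRNA genes it was 13.4 and 34.5 CPM against 7.74 and 7.596 CPM. The difference between strands was not tested, and without the strand of the reads it cannot be told which precursor they came from. The rRNA genes RNR1 and RNR2 had 0 reads and at most 6 reads in any library.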

How the results depend on the processing

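Members called higher numbered 0 in the reported fit, 1 at a pseudocount of 5, 1 after quantile normalization, 2 at a minimum of 1 CPM, 2 with no minimum and 2 on CPM without mitochondrial genes. Leaving out 1 library leaves 1 in a group. Members were then called only without IgG replicate 2, and less often there than all genes tested. The replicate block gave 2 members (ND4 and ND5) and 4 genes in all; the deviations of libraries that share a number correlated at 0.006, and nothing in the labels pairs them. ND4 was called in 6 of 18 alternatives, ND5 in 5, ND1, ND4L and ND6 in 1 each, the last 3 without IgG replicate 2, and ND2 and ND3 in none. Genes called in all numbered 1, and also 1 at a pseudocount of 5, at a minimum of 20 CPM, with TMM factors and after quantile normalization. They numbered 11 at a pseudocount of 0.1, 3 at a minimum of 1 CPM, 6 with no minimum and 3 on CPM without mitochondrial genes. They numbered 0 in 7 alternatives, given here with the number higher, then lower, by an unadjusted p under 0.05: centring on medians with 43 and 359, a constant prior variance with 363 and 2, edgeR with 21 and 162, its fit with the replicate block with 10 and 0, DESeq2 with 89 and 149, and leaving out anti-PHGDH replicate 1 with 13 and 0 or replicate 2 with 15 and 0. They ran from 0 to 8161 without 1 library, 102 without IgG replicate 1 and 8161 without IgG replicate 2. Nuclear subunits called numbered 0, with 1 at a pseudocount of 0.1 and 0 to 15 without 1 library, 15 without IgG replicate 2.

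Centring on medians, which moved the median of all genes from 1.92 to -0.57, gave 0 members without overlap, a median of 1.00 over the members and -1.61 for ND3. Quantile normalization moved the median of all genes to -0.05 and left that of the members at 3.23. With TMM factors 6 members did not overlap. The members' median ran from 2.35 to 4.52 without 1 library. The difference in share, 22.7 points, was 13.3 without ND4, an alternative chosen after seeing the data. The log2 difference in the ND4L to ND4 ratio, 0.44, ran from -0.77 (without IgG replicate 1) to 1.65, and that of ND6 to ND5, -0.46, from -1.27 to 0.34 (without anti-PHGDH replicate 1), with 0.19 without IgG replicate 1. The causes were not tested.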
